A study of Oryza sativa Japonica Group with 6 samples.

Results

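The miR2118 family was described in anthers of autotetraploid and diploid rice, over every listed miRNA whose name holds miR2118 or MIR2118. Of 486 names in the deposited tables, those of the family numbered 31. They were 13 mature rows (12 of rice and zma-miR2118e, a match to a maize miRNA) and 18 opposite-arm rows, which come from the hairpin arm across from the annotated miRNA. All 18 opposite-arm rows were named p5, the 5′ arm of the hairpin. Whole anthers of Taichung65-4x (4x anthers) and of its diploid counterpart Taichung65-2x (2x anthers) were collected at pre-meiotic interphase (PMA), meiosis (MA) and the single microspore stage (SCP), with 1 small RNA library per group and 6 libraries in all. Taichung65-4x had been obtained from Taichung65-2x by doubling its chromosomes with colchicine, and had since been selfed for over 20 generations. In stage order, anther length was 0.90–1.40, 1.45–1.95 and 1.50–2.05 mm in Taichung65-4x and 0.75–0.85, 1.00–1.35 and 1.40–1.55 mm in Taichung65-2x. Small RNA libraries hold no marker genes, so stage and tissue could not be checked against the data.

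In grasses, miR2118 is known for starting the production of phased secondary siRNAs (phasiRNAs) in young anthers. It guides cleavage of long noncoding PHAS transcripts, which RNA-dependent RNA polymerase RDR6 then makes double-stranded and the dicer DCL4 cuts at regular steps. In rice the resulting phasiRNAs bind the germ cell Argonaute MEL1, which is needed for meiosis to proceed. The mature strand is usually cut from its hairpin together with a partner strand of the other arm, which is mostly degraded.

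The 12 rice mature rows were all 22 nt long and carried 6 different seeds, the bases 2 to 8 that lead target pairing. Shown, with the seed in capitals, are the 5 most abundant rows, the 2 that were called between the ploidies (osa-miR2118c and osa-miR2118a) and osa-miR2118o, whose share at SCP differed between them.
osa-miR2118d: tTCCTGATgcctcccatgccta
osa-miR2118f: tTCCTGATgcctcccattccta
osa-miR2118o: cTCCTGATgcctcccaagccta
osa-miR2118b: tTCCCGATgcctcccattccta
osa-miR2118c: tTCCCGATgcctcctattccta
osa-miR2118e: tTCCCAATgcctcccatgccta
osa-miR2118g_1ss5TC: tTCCCAATgcctcccattccta
osa-miR2118a: tTCTCGATgcctcccattccta
The rows osa-miR2118h and zma-miR2118e shared the seed TCCTGAT with osa-miR2118d, osa-miR2118f and osa-miR2118o. The row osa-miR2118p shared TCCCGAT with osa-miR2118b and osa-miR2118c, osa-miR2118l alone had TCCTAAT and osa-miR2118i alone TCCTAGT. The suffix of osa-miR2118g_1ss5TC marks, in the notation of the tables, 1 substitution from the miRBase sequence. Over the 12 rice rows 10 of 22 positions varied, 4 of them within the seed and 6 outside it. Counted from 1 at the 5′ end of osa-miR2118d, osa-miR2118p differed by T5C, osa-miR2118f by G18T, osa-miR2118e by T5C and G6A, and osa-miR2118b by T5C and G18T. The other rice rows differed from osa-miR2118d at 2 or 3 positions.

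The opposite-arm rows fell into 2 length classes, 9 of 22 nt and 9 of 21 nt. Shown in lower case are the 5 most abundant rows (osa-MIR2118p-p5 has the sequence of osa-MIR2118d-p5) and those called between the ploidies, first the 22 nt rows and then the 21 nt rows, with osa-MIR2118b-p5 added for its early start.
osa-MIR2118d-p5: ggcatgggaacatggaggaaag
osa-MIR2118o-p5: ggcatggggacatgaaggaatg
osa-MIR2118m-p5: ggaatgggaacatgaaggaaag
osa-MIR2118h-p5: ggaatgagaacatgaaggaaag
osa-MIR2118a-p5: ggactgggaacatatgagaaag
osa-MIR2118f-p5_1ss7AT: acatggtggaaagcatgagct
osa-MIR2118k-p5: taagctctattgtcccctcta
osa-MIR2118g-p5: tctaagagctgtaggaatggg
osa-MIR2118l-p5: ttaggaagaggaagaaattga
osa-MIR2118b-p5: taagagcagtgggaatgggaa
All 9 rows of 22 nt started with GG. Of 12 hairpin letters with a row for both arms, 6 (p, c, a, d, h and o) had an opposite-arm row that paired with its mature row over 15 to 17 bases and left overhangs of 2 bases at both 3′ ends, the geometry of a dicer product. All 6 of these opposite-arm rows were 22 nt long. The other 6 letters (e, b, g, f, i and l) had 21 nt rows that paired over 9 to 15 bases without these ends. Of the 9 rows of 21 nt, 7 could be placed against a 22 nt row by shared sequence. By this placement osa-MIR2118e-p5, osa-MIR2118b-p5 and osa-MIR2118i-p5 started 11 nt before the 22 nt rows and osa-MIR2118g-p5 started 13 nt before them. These starts rest on overlaps of only 10, 10, 10 and 8 bases. The overlaps are with the 22 nt rows of letters p or j and not with a row of the same letter. The rows osa-MIR2118r-p5, osa-MIR2118n-p5 and osa-MIR2118f-p5_1ss7AT started 2, 4 and 9 nt after them. The rows osa-MIR2118k-p5 and osa-MIR2118l-p5 were not placed.

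**Figure D1:**
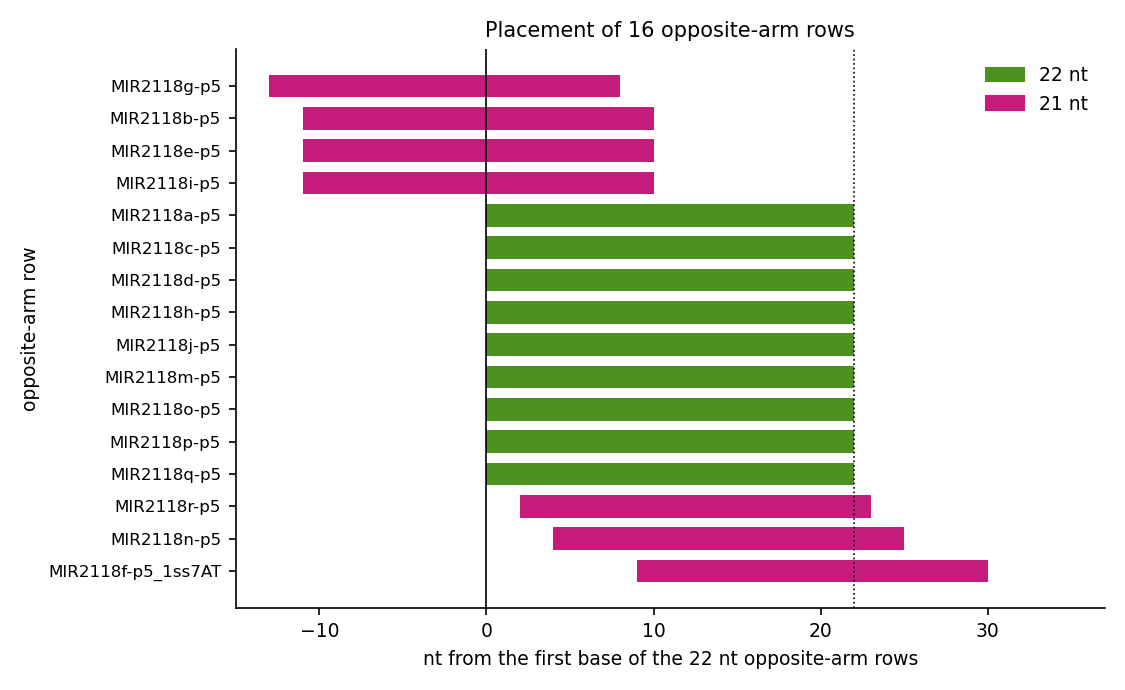
Position of 16 opposite-arm rows relative to the first base of the 22 nt rows, in nt (x axis); each bar is 1 row with its length, green for 22 nt and magenta for 21 nt. Of the 21 nt rows 4 start before the 22 nt rows and 3 start after them. The 9 rows of 22 nt are drawn from a common start that was assigned, as they were not placed against one another.

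Levels are the authors' normalized reads, copy numbers multiplied by 1 factor for each library, so that 1 read was worth between 0.797 (SCP-4x) and 1.36 (PMA-4x) in this unit. Each group had 1 library, so every comparison is of 2 libraries and not of conditions. A difference between the ploidies at 1 stage has no replicate to test it against, a fit of ploidy over the stages together was not made, and the 95% intervals cover counting error only. Near-identical members appeared to share reads. Of the 18 opposite-arm rows 3 to 7 in a library, and of the 12 rice mature rows 0 or 1, stood at a whole number of reads (tolerance 0.01). The opposite-arm rows summed to whole reads in 6 of 6 libraries (726 to 1982 reads), as reads divided among rows would. The rice mature rows summed to whole reads in 0 of 6 libraries, and which rows hold the rest of those reads was not tested. Whether and how reads were divided is not stated in the labels or tables. The level of a single row depends on it, so the ratio of a single row has an interval only where both its values are whole reads, and the intervals of shares use reads rounded to whole numbers.

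Mature miR2118 was among the most abundant listed miRNAs before meiosis and stood lower at each later stage in both ploidies. The family held 19.6%, 13.9% and 10.4% of the summed level of all listed miRNAs at PMA, MA and SCP in 4x anthers. In 2x anthers it held 25.6%, 12.9% and 5.99%. The 12 rice mature rows summed to 22817, 10913 and 5846 normalized reads in 4x anthers and to 30593, 11968 and 3873 in 2x anthers. The 18 opposite-arm rows summed to 2526, 1205 and 579 in 4x anthers and to 2669, 1821 and 767 in 2x anthers. Before meiosis the mature sum was thus lower in the autotetraploid library, and at the microspore stage it was higher. The libraries compared also differed in anther length. At PMA it was 0.90–1.40 mm in 4x anthers and 0.75–0.85 mm in 2x anthers, where it was 1.00–1.35 mm at MA. Whether the ploidies were matched in stage was not tested. In whole anthers, fewer cells that make a miRNA and less of it per cell cannot be told apart.

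The most abundant member in each library was osa-miR2118d, with 8137, 3078 and 1767 normalized reads in 4x anthers and 7447, 2873 and 964 in 2x anthers. It ranked first of 441 listed miRNAs at PMA, 5 at MA and 6 at SCP in 4x anthers, and first of 402, 8 and 14 in 2x anthers. Of the 20 most abundant miRNAs 6, 3 and 2 were mature miR2118 rows in 4x anthers and 8, 3 and 1 in 2x anthers. The level of osa-miR2118d was higher in 4x anthers at all 3 stages, as deposited and under each scaling given below. Next was osa-miR2118b with 2694, 1458 and 885 in 4x anthers and 4435, 1641 and 530 in 2x anthers. The row osa-miR2118f had 2008, 1182 and 387 in 4x anthers and 3489, 1554 and 509 in 2x anthers. Unlike osa-miR2118b, osa-miR2118f was lower in 4x anthers at all 3 stages, also under each scaling. The row osa-miR2118g_1ss5TC had 1880, 1081 and 563 in 4x anthers and 2826, 1285 and 392 in 2x anthers. The row osa-miR2118e had 2034, 1019 and 618 in 4x anthers and 2649, 999 and 299 in 2x anthers. Both were lower in 4x anthers at PMA and higher there at SCP. The lowest rice mature row of a library had between 64.0 (osa-miR2118i, SCP-2x) and 604 (osa-miR2118l, PMA-2x) normalized reads.

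The opposite-arm rows were at lower levels, with medians of 111, 54.7 and 22.9 normalized reads in 4x anthers and 123, 88.7 and 29.3 in 2x anthers. Rice mature rows had medians of 1546, 744 and 385 in 4x anthers and 2409, 851 and 266 in 2x anthers. The highest opposite-arm row in each library was the 21 nt row osa-MIR2118f-p5_1ss7AT, with 446, 194 and 97.5 in 4x anthers and 349, 285 and 168 in 2x anthers. It was higher in 4x anthers at PMA only. The row osa-MIR2118g-p5 had 256, 127 and 74.5 in 4x anthers and 258, 191 and 77.4 in 2x anthers. The row osa-MIR2118d-p5, the 22 nt partner of osa-miR2118d, had 194, 99.9 and 43.5 in 4x anthers and 232, 167 and 34.6 in 2x anthers. As deposited, both rows were within 1.26-fold between the ploidies at PMA and SCP and lower in 4x anthers at MA. The row osa-MIR2118p-p5, which has the same sequence as osa-MIR2118d-p5, was at 135, 59.1 and 17.3 in 4x anthers and at 177, 96.3 and 28.4 in 2x anthers. The lowest row was osa-MIR2118a-p5 in all 6 libraries, with 3.59 to 41.1 normalized reads.

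**Figure D2:**
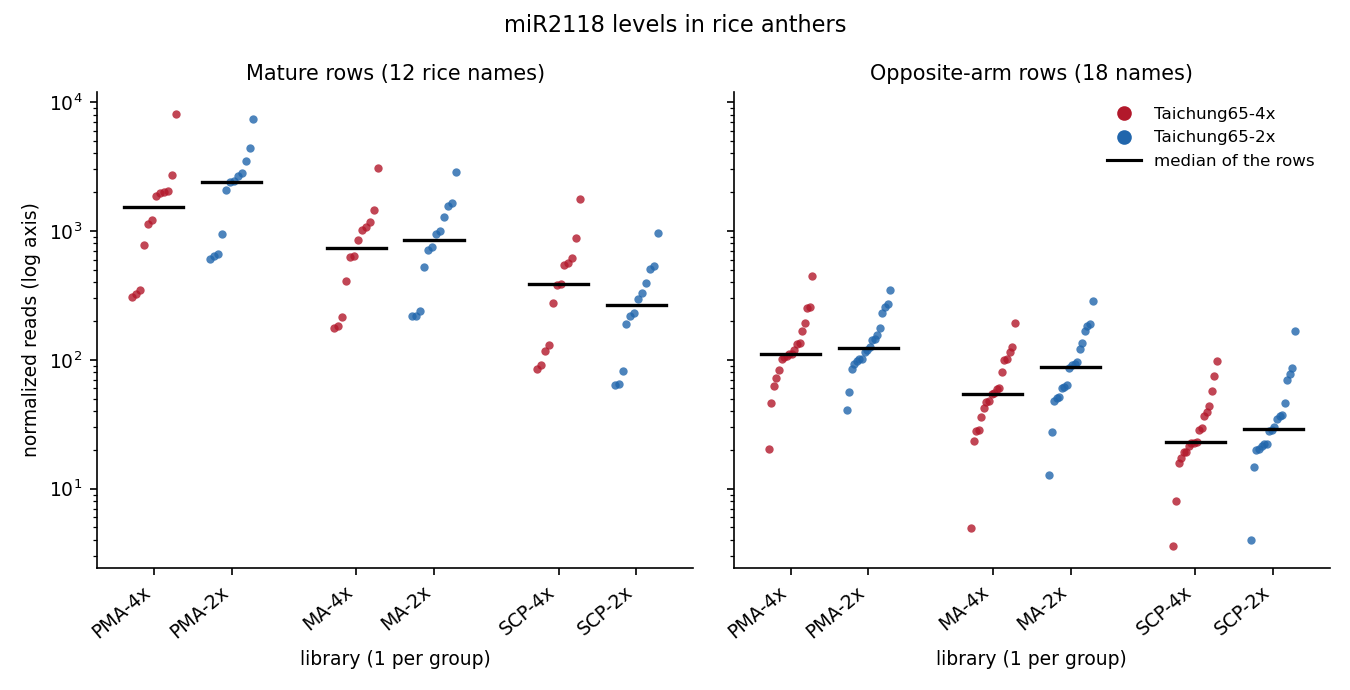
Normalized reads (log axis) of the 12 rice mature rows (left) and the 18 opposite-arm rows (right) in each of the 6 libraries; points are rows, red for 4x anthers and blue for 2x anthers, and black lines are medians. Mature medians stand at 1546 in PMA-4x and 385 in SCP-4x, against 2409 in PMA-2x and 266 in SCP-2x, and opposite-arm medians are lower in each library.

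Each member listed for a ploidy had a lower level at MA than at PMA and a lower one at SCP than at MA, as deposited. This held for 12 of 12 rice mature rows and 18 of 18 opposite-arm rows in each ploidy, and for zma-miR2118e in 2x anthers. Among the other listed rows 42.3% in 4x anthers and 44.5% in 2x anthers had this order. Under 3 other scalings between libraries (equal sums, median ratio, clean reads), the order held for 12 of 12 mature rows in both ploidies but for fewer opposite-arm rows, 13 to 15 of 18 in 4x anthers and 12 to 14 of 18 in 2x anthers. These scalings raised later stages against earlier ones, by 1.02 to 1.20 on the log2 scale for SCP against PMA in 4x anthers and by 0.75 to 1.25 in 2x anthers.

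The drop over the stages differed by arm and ploidy, as deposited. In 4x anthers the 12 mature rows kept a median of 28.5% (16.7% to 34.0%) of their PMA level at SCP, and in 2x anthers the 13 mature rows kept a median of 12.9% (9.72% to 19.9%). Opposite-arm rows kept a median of 21.8% (12.9% to 34.2%) in 4x anthers and 26.4% (9.73% to 48.0%) in 2x anthers. These percentages rise under each other scaling. The summed mature rows of SCP against PMA had a log2 ratio of −1.96 in 4x anthers and −2.98 in 2x anthers, and the summed opposite-arm rows had −2.13 and −1.80 in the same libraries. Under the other scalings the mature sums had −0.77 to −0.94 in 4x anthers and −1.73 to −2.24 in 2x anthers. Equal sums raised SCP against PMA by 1.07 in 4x anthers and 0.75 in 2x anthers, so the ploidy difference of the opposite arm depended on the scaling. The difference between the arms, which no scaling of the libraries changes, was 0.16 in 4x anthers and −1.18 in 2x anthers, with mature rows over opposite-arm rows. In 2x anthers the mature rows thus lost more of their PMA level than the opposite-arm rows, and in 4x anthers the arms lost nearly the same.

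A miRNA was called when the larger value exceeded 10 and the fold exceeded 2. At MA against PMA in 4x anthers, 0 members were called higher (10.3% of all tested miRNAs were) and 13 of 30 lower (29.2% of all), of which 2 were mature and 11 opposite-arm rows. In 2x anthers, 0 were higher (5.54%) and 15 of 31 lower (22.2%), of which 12 were mature and 3 opposite-arm rows. These counts depended on the scaling: with equal sums, the median ratio and per clean read, the lower members were 3, 3 and 3 in 4x anthers and 12, 12 and 8 in 2x anthers. At SCP against MA, 0 members were higher in 4x anthers (9.23% of all) and 15 of 29 lower (21.3%). In 2x anthers, 0 were higher (8.17%) and 26 of 30 lower (37.2%). Under the 3 scalings in the same order, the lower members at this step were 5, 7 and 4 in 4x anthers and 17, 9 and 4 in 2x anthers. Over both steps, SCP against PMA, 0 members were higher in 4x anthers (15.4%) and 30 of 30 lower (46.1%). In 2x anthers, 0 were higher (12.9%) and 31 of 31 lower (51.2%). The median log2 ratio over both steps was −2.14 for members in 4x anthers and −0.72 for all tested miRNAs, and in 2x anthers it was −2.48 for members and −1.03 for all. Over both steps the 3 scalings left 17, 17 and 12 lower members in 4x anthers and 24, 22 and 20 in 2x anthers.

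Between the ploidies the arms took different courses. At PMA 11 of 12 rice mature rows were lower in 4x anthers than in 2x anthers, at MA 10 of 12 were lower, and at SCP 10 of 12 were higher. The counts at PMA and SCP were the same under the 3 other scalings, while at MA each of them gave 9 of 12 higher. Of all tested miRNAs as deposited, 197 of 397 were lower at PMA, 231 of 380 were lower at MA and 194 of 382 were higher at SCP. The mature rows are near-identical and may share reads, so they are not separate observations. Of the 18 opposite-arm rows, 14, 16 and 13 were lower in 4x anthers at PMA, MA and SCP. Under the other scalings 11 to 14 were lower at PMA, 13 at MA, and 8 (equal sums) or 13 (median ratio and clean reads) at SCP. At PMA the scalings moved the ratio of 4x to 2x anthers by at most 0.09 on the log2 scale, at MA by 0.30 to 0.31 and at SCP by 0.04 to 0.33, always upwards.

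The summed mature rows had a ratio of 4x to 2x anthers of 0.746 (0.731–0.761) at PMA, 0.912 (0.889–0.935) at MA and 1.51 (1.45–1.57) at SCP. The MA ratio turned to above 1 under each other scaling (log2 0.16 to 0.18, against −0.13 as deposited). The summed opposite-arm rows had ratios of 0.946 (0.888–1.01), 0.662 (0.616–0.710) and 0.755 (0.683–0.834). At PMA the interval of the opposite-arm ratio held 1, and per clean read its log2 value was 0.01. The log2 ratio of the mature rows minus that of the opposite-arm rows was −0.34 at PMA, 0.46 at MA and 1.00 at SCP, whichever scaling was taken. At PMA the 22 nt opposite-arm rows had a log2 ratio of sums of −0.30, near the −0.42 of the mature rows, and the 21 nt rows had 0.06. At MA the 22 nt rows had −0.73 and the 21 nt rows −0.51, and at SCP they had −0.36 and −0.43. The mature rows thus stood above both length classes at MA and SCP, while at PMA they stood further below the 21 nt rows than below the 22 nt rows.

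At PMA, 0 of 31 members were called higher in 4x anthers (5.54% of all tested miRNAs were) and 3 were called lower (5.54%). Few members passed the fold, as among all tested miRNAs. The median log2 ratio was −0.74 for rice mature rows, −0.11 for opposite-arm rows and 0.00 for all tested miRNAs. The row osa-miR2118c had 1126, 639 and 383 normalized reads in 4x anthers and 2393, 714 and 233 in 2x anthers, 2.13-fold lower in 4x anthers at PMA. The row osa-miR2118a had 309, 184 and 91.0 in 4x anthers and 668, 219 and 65.2 in 2x anthers, 2.16-fold lower at PMA. Both changed places by SCP, where the level was higher in 4x anthers. The row osa-MIR2118a-p5 had 20.4, 4.98 and 3.59 in 4x anthers and 41.1, 12.7 and 4.00 in 2x anthers, called lower at PMA (2.02-fold) and at MA (2.56-fold). It rested on 15, 5.50 and 4.50 reads in 4x anthers and 30.5, 13.5 and 4.50 in 2x anthers. Per clean read osa-miR2118a alone kept its call at PMA, and osa-MIR2118a-p5 lost its PMA call also with the median ratio and with a pseudocount of 1. With a minimum of 50 osa-MIR2118a-p5 was not tested. The maize name zma-miR2118e was listed for 2x anthers only, at 12.1, 4.72 and 2.22, and no row listed for 4x anthers stands at or under 10 in all stages, so its level there is known only to be within that limit.

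At MA, 0 of 30 tested members were called higher in 4x anthers (5.26% of all) and 4 were called lower (9.21%). All 4 were opposite-arm rows. The median log2 ratio was −0.21 for rice mature rows, −0.59 for opposite-arm rows and −0.18 for all tested miRNAs. The row osa-MIR2118l-p5 had 111, 28.1 and 23.0 in 4x anthers and 119, 85.9 and 21.3 in 2x anthers, 3.06-fold lower at MA (2.01–4.76). It was near the value of 2x anthers at the other stages. The row osa-MIR2118m-p5 had 72.7, 23.3 and 15.8 in 4x anthers and 101, 61.0 and 19.8 in 2x anthers, 2.62-fold lower at MA. The row osa-MIR2118o-p5 had 107, 42.6 and 36.7 in 4x anthers and 144, 91.5 and 30.2 in 2x anthers, 2.15-fold lower at MA (1.50–3.11). Like osa-MIR2118l-p5 it was not lower at SCP, and its call at MA was lost under each other scaling. The other opposite-arm rows of rice hairpins gave 9 higher and 4 lower calls of 105 tested at PMA (median 0.01), 4 and 7 of 110 at MA (median −0.06) and 9 and 8 of 104 at SCP (median −0.14), a description without a test.

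At SCP, 1 of 29 tested members was called higher in 4x anthers (13.4% of all) and 2 were called lower (10.2%). The median log2 ratio was 0.53 for rice mature rows, −0.33 for the 17 tested opposite-arm rows and 0.02 for all tested miRNAs. The 1 member called higher was osa-miR2118e, 2.07-fold, with the values given above. With equal sums 6 members passed the fold, and with the median ratio 2 did. The row osa-MIR2118h-p5 had 46.2, 28.3 and 7.97 in 4x anthers and 56.6, 27.4 and 22.2 in 2x anthers, 2.79-fold lower at SCP (1.29–6.50), on 10 reads against 25. The row osa-MIR2118k-p5 had 253, 116 and 39.1 in 4x anthers and 272, 182 and 86.2 in 2x anthers, 2.21-fold lower at SCP (1.55–3.18). Both differed less at PMA. With equal sums osa-MIR2118k-p5 lost its call, and with a minimum of 50 osa-MIR2118h-p5 lost its own. The miR2275 rows, the other phasiRNA trigger of grass anthers, had a median log2 ratio of −0.43 at PMA, −0.09 at MA and 0.61 at SCP over 12, 8 and 8 tested rows. At SCP they ranged from −0.82 to 2.15, with 3 of 8 below 0. Of them 3, 0 and 0 were called lower and 0, 0 and 2 higher in stage order. The rows of miR162, miR168 and miR390, which act on DICER-LIKE1, on ARGONAUTE1 and on the tasiRNA precursor TAS3, had medians of 0.01, −0.32 and −0.52 over 8 tested rows, with 0, 2 and 1 called lower and 0 called higher.

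Around the fold of 2, osa-MIR2118a-p5 (2.02) lay just inside and osa-miR2118i (1.99) just outside at PMA. At MA osa-MIR2118o-p5 (2.15) lay just inside and osa-MIR2118j-p5 (1.93) just outside. At SCP osa-miR2118e (2.07) lay just inside and osa-MIR2118r-p5 (1.94, higher in 4x anthers) just outside.

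**Figure D3:**
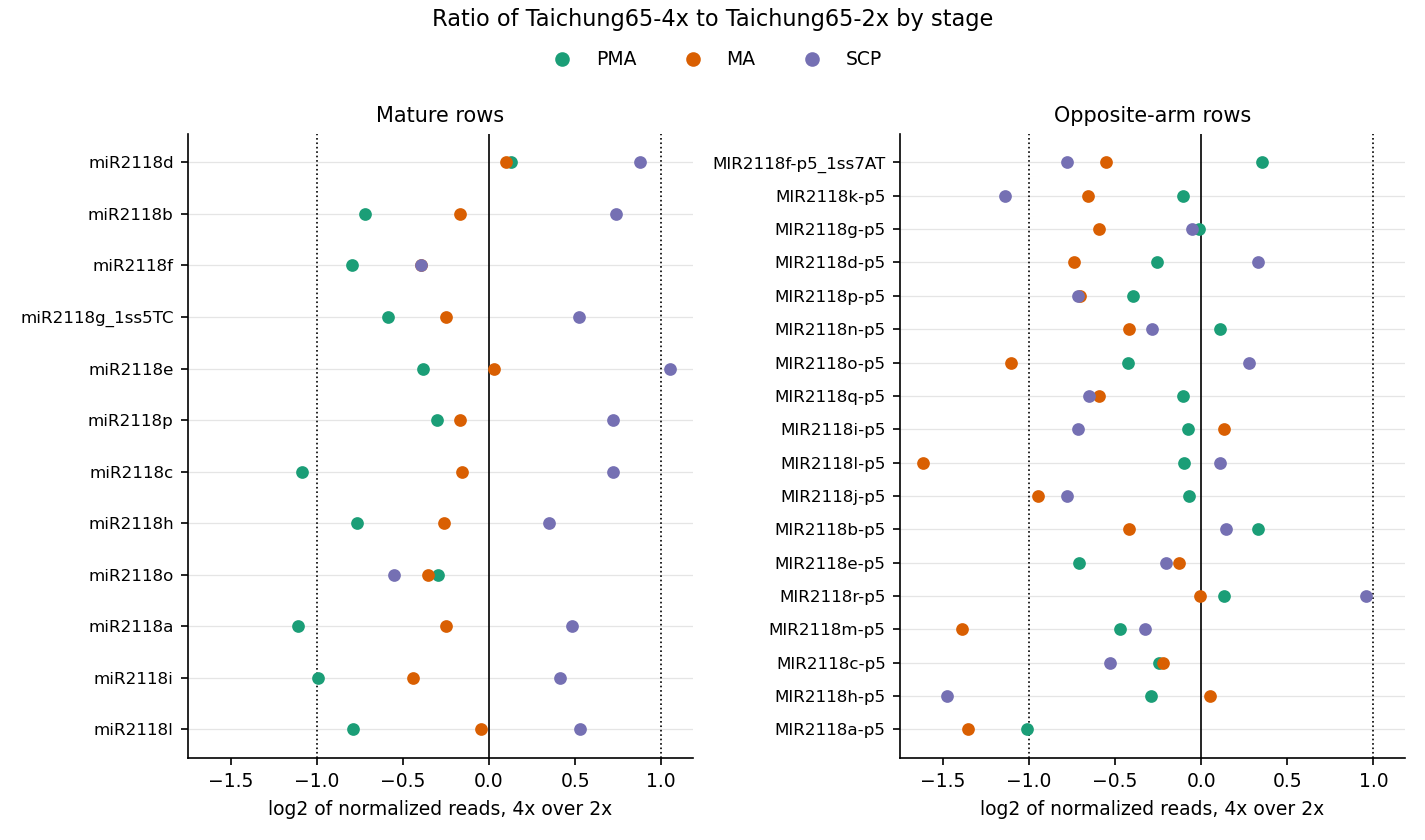
Log2 ratio of normalized reads, 4x over 2x anthers, for rice mature rows (left) and opposite-arm rows (right), coloured by stage; dotted lines mark a fold of 2. Mature rows lie below 0 at PMA for 11 of 12 rows and above 0 at SCP for 10 of 12 under each scaling, while 16 of 18 opposite-arm rows lie below 0 at MA (13 under the other scalings).

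The share of the opposite arm among all miR2118 reads needs no scaling between libraries. It was 9.97% (9.54–10.4), 9.94% (9.44–10.5) and 9.01% (8.39–9.66) in 4x anthers at PMA, MA and SCP. In 2x anthers it was 8.02% (7.69–8.37), 13.2% (12.7–13.8) and 16.5% (15.5–17.6). The share over all members was thus nearly level over the stages in 4x anthers and larger at each later stage in 2x anthers. The intervals (exact binomial, sums rounded to reads) of the ploidies did not overlap at any stage. The 4x anthers had the larger share at PMA and the smaller at MA and SCP, also when identical sequences were counted once, for letters with both rows, without the most abundant row of each arm, and for the median over letters. Only the 6 opposite-arm rows that pair with overhangs of 2 bases were then counted, against the mature rows of all letters. This gave 2.50%, 2.58% and 2.15% in 4x anthers and 2.39%, 3.68% and 3.66% in 2x anthers. Within single letters of these 6, the share at PMA was higher in 4x anthers for c, a and h. It was lower there for p, d and o, so the larger share at PMA did not hold for each pairing letter. For these rows the share in 2x anthers was not larger at SCP than at MA, and the ploidies were close at PMA. No interval is given for these shares.

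Within hairpin letters the opposite-arm share ranged widely. It was higher in 4x anthers for 8 of 12 letters at PMA, and lower for 10 of 12 at MA and 11 of 12 at SCP. From MA to SCP in 2x anthers it rose for 8 of 12 letters and fell for 4. By its median over libraries it was highest for letter i, at 27.0%, 23.9% and 21.1% in 4x anthers and 16.4%, 17.4% and 36.8% in 2x anthers. It was lowest for letter b, at 3.78%, 2.41% and 2.49% in 4x anthers and 1.86%, 2.84% and 3.71% in 2x anthers. Both have opposite-arm rows of 21 nt that were placed 11 nt before the 22 nt rows. The tables name a row by the first known miRNA of its cluster, and 6 letters (r, q, n, j, m and k) had opposite-arm rows only, so a mature row can hold reads of more than its own hairpin.

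**Figure D4:**
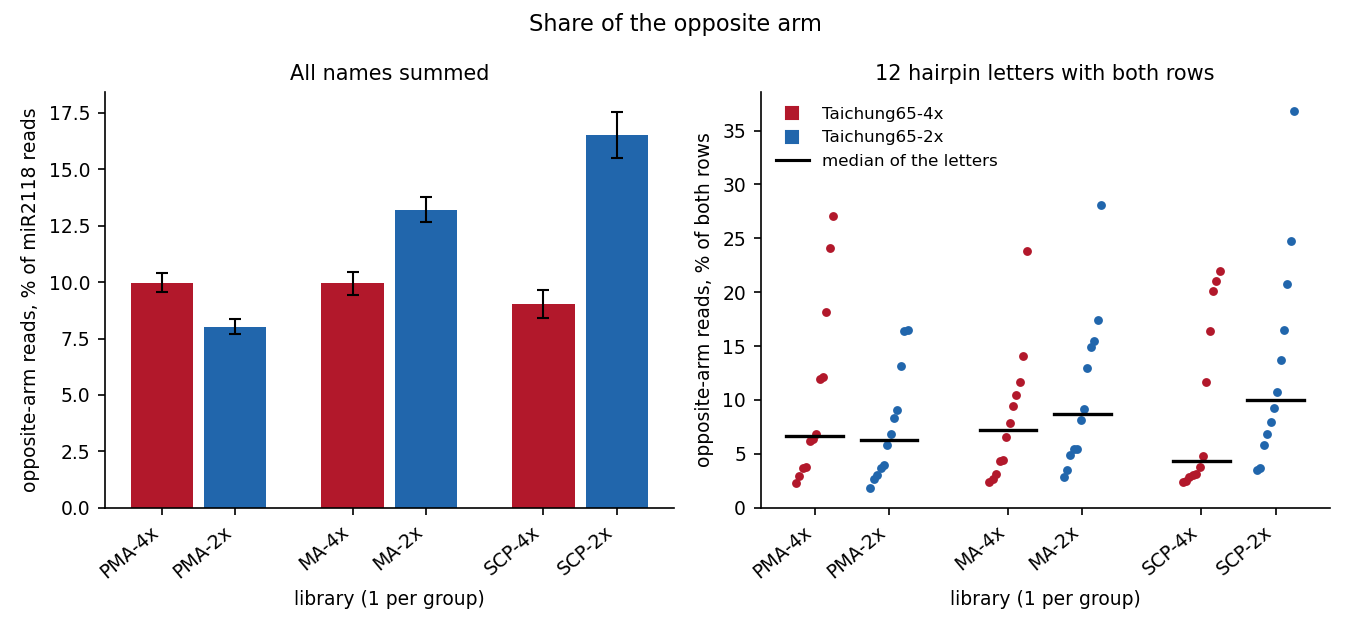
Opposite-arm reads as a percentage of all miR2118 reads in each library (left, bars from 0 with 95% exact binomial intervals) and within each of 12 hairpin letters (right, points, with the median as a line); red is 4x anthers and blue is 2x anthers. The share is 9.97%, 9.94% and 9.01% in 4x anthers and 8.02%, 13.2% and 16.5% in 2x anthers.

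Rows of 22 nt made up 35.7% (33.5–37.9), 36.6% (34.0–39.3) and 33.7% (30.3–37.3) of the opposite-arm reads in 4x anthers at PMA, MA and SCP. In 2x anthers they made up 41.6% (39.4–43.8), 40.3% (38.1–42.5) and 32.6% (29.6–35.9). The 22 nt share was thus the smaller one in 4x anthers at PMA, while at MA and SCP the intervals of the ploidies overlapped. At PMA 9 of 9 rows of 22 nt were lower in 4x anthers as deposited, with a median log2 ratio of −0.29, and 5 of 9 rows of 21 nt, with a median of −0.01. The rows of 22 nt include 3 pairs with 1 sequence each (letters d and p, q and c, j and m), so they are not separate observations.

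The mature reads were also divided differently among members. In 4x anthers osa-miR2118d held 35.7% (34.9–36.4), 28.2% (27.4–29.0) and 30.2% (29.2–31.3) of them in stage order. In 2x anthers it held 24.3% (23.8–24.9), 24.0% (23.3–24.7) and 24.9% (23.6–26.2). Its share was thus larger in 4x anthers at each stage. The intervals did not overlap, but those of single-row shares cover neither the division of reads among near-identical rows nor variation between libraries. Without osa-miR2118d the summed mature rows had log2 ratios of 4x to 2x anthers of −0.66 at PMA, −0.22 at MA and 0.49 at SCP, a comparison chosen after the values were seen.

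The row osa-miR2118f held 8.80% (8.38–9.24), 10.8% (10.3–11.4) and 6.62% (6.06–7.21) in 4x anthers, and 11.4% (11.0–11.8), 13.0% (12.4–13.6) and 13.1% (12.1–14.2) in 2x anthers. Its share was the smaller one in 4x anthers at each stage. The row osa-miR2118o had 779, 410 and 130 normalized reads in 4x anthers and 955, 523 and 190 in 2x anthers. Its share of the mature reads was 3.41% in 4x anthers and 3.12% in 2x anthers at PMA, and 3.76% and 4.37% at MA, with intervals that overlapped. At SCP it held 2.22% (1.90–2.59) of the mature reads in 4x anthers and 4.91% (4.28–5.59) in 2x anthers. This row was picked for that difference after the values were seen, so its intervals are description only. With osa-miR2118f it was the only rice mature row that was lower in 4x anthers at SCP, under each scaling (log2 −0.40 for osa-miR2118f and −0.55 for osa-miR2118o as deposited).

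By seed, the 5 rows with TCCTGAT (4 of them listed in 4x anthers), which include osa-miR2118d, osa-miR2118f and osa-miR2118o, held 53.2% (52.4–53.9), 48.5% (47.6–49.4) and 43.8% (42.7–44.9) of the mature reads in 4x anthers. In 2x anthers they held 45.6% (45.0–46.3), 47.6% (46.8–48.5) and 48.6% (47.1–50.1). The seed group was thus larger in 4x anthers at PMA and smaller at SCP. The 3 rows with TCCCGAT took 25.4%, 27.0% and 31.0% in 4x anthers and 30.2%, 27.6% and 28.2% in 2x anthers. The 2 rows with TCCCAAT took 17.2%, 19.2% and 20.2% in 4x anthers and 17.9%, 19.1% and 17.8% in 2x anthers.

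**Figure D5:**
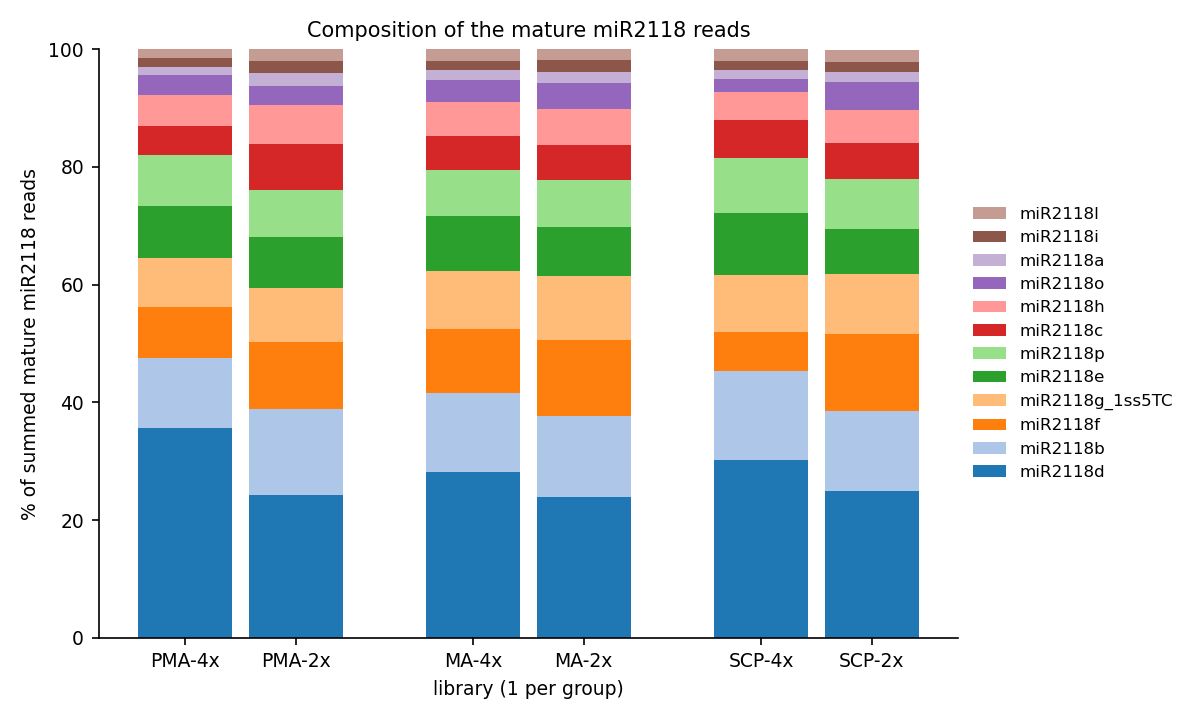
Share of the summed mature miR2118 reads (%) held by each of the 12 rice mature rows in each library; bars start at 0 and each colour is 1 row. The share of osa-miR2118d, at the bottom, is 35.7%, 28.2% and 30.2% in 4x anthers and 24.3%, 24.0% and 24.9% in 2x anthers.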

How the data were processed

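The values are the authors' normalized reads (signal), deposited as 1 value for each miRNA and library. The authors sequenced TruSeq small RNA libraries of anther RNA on an Illumina HiSeq2500, filtered reads with ACGT101-miR, mapped unique sequences by BLAST to miRBase 20.0 hairpins with 1 mismatch and end variation allowed, and multiplied copy numbers by 1 factor for each library. A genome build was not given in the sources used here. In the tables each miRNA exceeds 10 in at least 1 stage of its ploidy (checked on the files).

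Members and comparison lists were chosen with earlier results of these data known. Rows were matched between ploidies by name. The value of 1 read was found as the step that makes most low values whole. In 3 ploidy and 6 stage comparisons rows with the larger value over 10 were tested and called at a fold over 2, with an unlisted row set at 10 and a listed 0 at 0.01. No statistical test was made. Intervals are 95% exact binomial intervals on reads (SciPy 1.17.1). A sum or share with divided reads was rounded to whole reads. Duplexes were predicted with RNAduplex 2.7.2, and a pairing counted at 15 or more pairs with overhangs of 2 bases. A 21 nt row was placed where at least 8 bases overlapped a 22 nt row with 85% or more matching. The 22 nt rows were assigned a common start and were not placed against one another. The calls and intervals were tested on simulated data, which held whole reads for the PMA pair and changes well beyond the fold of 2. These do not cover calls near that fold, divided reads or variation between libraries. The named rows were the 5 most abundant of each arm, those called between ploidies, those with another stage order, those listed for 1 ploidy, those of other species, and the letters with the highest and lowest opposite-arm share. The row osa-miR2118o was added after its share at SCP was seen. Alternatives were 3 other scalings, other minimums, folds and pseudocounts, identical sequences counted once, rice names only, and other sets of rows. Hairpin sequences and genome positions were not used here.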

Additional observations from a re-analysis of the deposited data

Results flagged for a closer look

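The summed mature rows differed in direction between stages. Their log2 ratio of Taichung65-4x to Taichung65-2x was −0.42 at PMA, −0.13 at MA and 0.59 at SCP. With 1 library per group the difference between the stages was not tested. The PMA and SCP directions held under each scaling and without osa-miR2118d, and the MA direction did not hold under the other scalings.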

How the results depend on the processing

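The scale between libraries, a single library per group and reads that appear divided among near-identical rows limit these results. As counts of members called lower between ploidies, the 3 at PMA became 1 per clean read and 10 at a fold over 1.5, the 4 at MA became 10 at that fold, and the 2 at SCP became 1 with equal sums, 1 with a minimum of 50 and 7 at a fold over 1.5. Members called higher at MA were 1 without a minimum (0 with it). At SCP they were 6 with equal sums, 2 with the median ratio, 2 without a minimum and 6 at a fold over 1.5, against 1.

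Between stages in 4x anthers, members lower at MA against PMA were 3 under each of the 3 scalings and 29 at a fold over 1.5, against 13. At SCP against MA they were 5, 7, 4 and 26 in the same order, against 15. At SCP against PMA they were 17, 17 and 12 under the 3 scalings, against 30. In 2x anthers, MA against PMA gave 8 per clean read and 23 at a fold over 1.5, against 15. SCP against MA gave 17 with equal sums, 9 with the median ratio and 4 per clean read, against 26. SCP against PMA gave 20 per clean read, against 31.

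The log2 ratio of the mature sums at PMA was −0.33 per clean read and −0.66 without osa-miR2118d. At MA it was 0.16 with equal sums, 0.16 with the median ratio and 0.18 per clean read, and −0.22 without osa-miR2118d. At SCP it was 0.92 with equal sums and 0.49 without osa-miR2118d. The median of the mature rows at MA was 0.087, 0.088 and 0.11 under the 3 scalings. The opposite-arm sums gave 0.013 per clean read at PMA, −0.30, −0.30 and −0.28 under the 3 scalings at MA, and −0.078 with equal sums at SCP, where the median of the tested rows was 0.00029. The cause of these changes is the scale factor itself, or the row left out.

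For pairing rows only, against the mature rows of all letters, the opposite-arm share at PMA, MA and SCP was 2.50%, 2.58% and 2.15% in 4x anthers. In 2x anthers it was 2.39%, 3.68% and 3.66%. Identical sequences counted once gave 8.92%, 8.92% and 8.26% in 4x anthers and 6.97%, 11.8% and 15.1% in 2x anthers. Letters with both rows gave 6.89%, 6.64% and 6.22% in 4x anthers and 5.52%, 8.90% and 11.3% in 2x anthers. Without the most abundant row of each arm it was 12.4%, 11.4% and 10.6% in 4x anthers and 9.10% and 14.4% in 2x anthers at PMA and MA. The median over letters was 6.63%, 7.17% and 4.31% in 4x anthers and 6.31%, 8.65% and 10.01% in 2x anthers. The 3 stages pair a 4x with a 2x library, but a fit of ploidy with stage as a block, which takes 1 ploidy difference for all stages, was not made.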

Other observations

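The tables hold 3 pairs of opposite-arm rows with 1 sequence each under different names. Their levels differed within a library. In PMA-4x and PMA-2x osa-MIR2118d-p5 stood at 194 and 232 normalized reads and osa-MIR2118p-p5 at 135 and 177. The row osa-MIR2118q-p5 stood at 133 and 143 in these libraries and osa-MIR2118c-p5 at 82.8 and 98.3. The row osa-MIR2118j-p5 stood at 110 and 115 and osa-MIR2118m-p5 at 72.7 and 101. A row sums the reads of a cluster and prints its leading read, so rows with 1 printed sequence need not hold the same reads.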
